A study of Mus musculus with 8 samples.

Results

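The opioid genes examined here were the 3 peptide genes *Penk*, *Pdyn*, and *Pnoc* and the 4 receptor genes *Oprm1*, *Oprd1*, *Oprk1*, and *Oprl1*. They were measured by all probes whose RefSeq accession maps to one of these 7 genes, without regard to how the probes behaved. This gave 9 of the 55681 probes on the array, because *Oprm1* and *Oprl1* have 2 probes each and the other 5 genes have 1. On every array all 9 gave a signal well above background, so no member value below is a bound set by dim signal. These 7 are among 20280 genes that the accessions name.

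The study compared 4 hypothalamic nuclei, the arcuate nucleus (Arc), ventromedial hypothalamus (VMH), dorsomedial hypothalamus (DMH), and lateral hypothalamus (LH), to find genes selective for the DMH. Each nucleus was cut out by laser microdissection from female C57BL/6J mice at 3 months of age, an inbred wild-type strain, with free access to food. The RNA was amplified as a whole transcriptome and hybridized to 2 arrays per nucleus, Arc1 and Arc2 to LH1 and LH2, all on 1 slide read in 1 scan. The RNA came from 2 mice, but which arrays share a mouse was not given in the sources used here, so the p-values measure only the spread between these samples, which may be technical. No group received a treatment or carried an altered allele.

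Opioid peptides are cut from large precursors: *Penk* encodes the precursor of the enkephalins, *Pdyn* that of the dynorphins, and *Pnoc* that of nociceptin. Enkephalins act mainly on the delta receptor (*Oprd1*) and the mu receptor (*Oprm1*), dynorphins on the kappa receptor (*Oprk1*), and nociceptin on its own receptor (*Oprl1*). All of these receptors couple to inhibitory G proteins, which lower cyclic AMP, open inwardly rectifying potassium channels, and close calcium channels. In the hypothalamus, the system is known for its part in feeding, reward, reproduction, and the response to stress.

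In the VMH the receptor gene *Oprd1* was highest and *Oprm1*, by 1 of its probes, lowest, as described below, and the DNA before a start site of each is shown for context. Both windows are the 250 bases upstream of a RefSeq start on GRCm38.p6, read 5′ to 3′ on the strand of the gene. The *Oprd1* window is chr4:132144487-132144736 on the minus strand, and the *Oprm1* window, the second of 3 listed for that gene, is chr10:6788320-6788569 on the plus strand. Capitals mark the GC box GGGCGG, searched on both strands.

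Oprd1: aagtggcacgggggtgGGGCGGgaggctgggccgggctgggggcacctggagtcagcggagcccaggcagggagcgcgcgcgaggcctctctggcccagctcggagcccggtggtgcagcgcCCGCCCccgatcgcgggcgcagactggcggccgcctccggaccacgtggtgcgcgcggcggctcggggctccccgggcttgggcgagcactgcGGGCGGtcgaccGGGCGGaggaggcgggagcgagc

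Oprm1: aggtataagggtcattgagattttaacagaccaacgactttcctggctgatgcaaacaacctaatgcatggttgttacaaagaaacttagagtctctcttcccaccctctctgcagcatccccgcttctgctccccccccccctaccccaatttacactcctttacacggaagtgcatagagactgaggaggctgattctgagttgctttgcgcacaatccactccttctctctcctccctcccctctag

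The *Oprd1* window held 4 GC boxes and was 80% G and C, whereas the *Oprm1* window held 0 and was 50% G and C. A GC box occurred in 32.7% of all 32851 windows of this length, whose median content of G and C was 52.4%. Neither the NR5A motif CAAGGTCA (1.33% of all windows) nor the cyclic AMP response element TGACGTCA (1.55% of all windows), both searched on both strands, was found in any of the 9 windows of *Pdyn*, *Oprl1*, *Oprd1*, and *Oprm1*. *Penk*, *Pnoc*, and *Oprk1* have no entry in this table. The windows were not tied to the transcripts that the probes detect.

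The dissections were compared with markers of the nuclei. *Agrp* was between 47181 and 53020 in scaled signal in the Arc and at most 581 elsewhere, *Nr5a1* was between 11694 and 12163 in the VMH and at most 688 elsewhere, and *Prdm13* was between 1661 and 1667 in the DMH and at most 140 elsewhere. The study picked *Prdm13* as DMH-enriched on these same arrays, so it is no independent check of the DMH. *Npvf*, picked likewise, was 3943 and 4786 in the DMH, 438 on VMH1, and 406 on LH1 (F-test, adjusted p = 0.0769). *Gpr50*, also listed for the DMH, was 2097 and 1774 there and 927 and 814 in the Arc. *Ghrh*, listed for the Arc, was 11681 and 15186 there and 1902 and 3270 in the DMH. *Hcrt*, the orexin precursor gene of the LH, reached 105971 and 116750 in the LH but also 55940 and 51283 in the DMH. *Pmch*, also of the LH, was 17650 and 17005 there, 16253 and 11631 in the DMH, and 3938 and 3140 in the VMH. The LH markers therefore did not set the LH apart from the DMH. The correlation of the 2 arrays of a nucleus was between 0.971 and 0.981 in the Arc, VMH, and DMH and 0.938 in the LH, where LH2 correlated better with DMH2 (0.954) than with LH1. Of 3 markers of the neighbouring paraventricular nucleus, *Oxt* was at 109 on LH1, 8332 on LH2, 6559 on Arc1, 848 on Arc2, and 1242 on VMH2. *Crh* was at 4931 and 3623 in the LH, 2026 and 2543 in the DMH, and not well above background in the Arc, and *Sim1* was well above background on no array. In these bulk dissections, fewer cells of a type and less RNA per cell cannot be told apart.

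**Figure D1:**
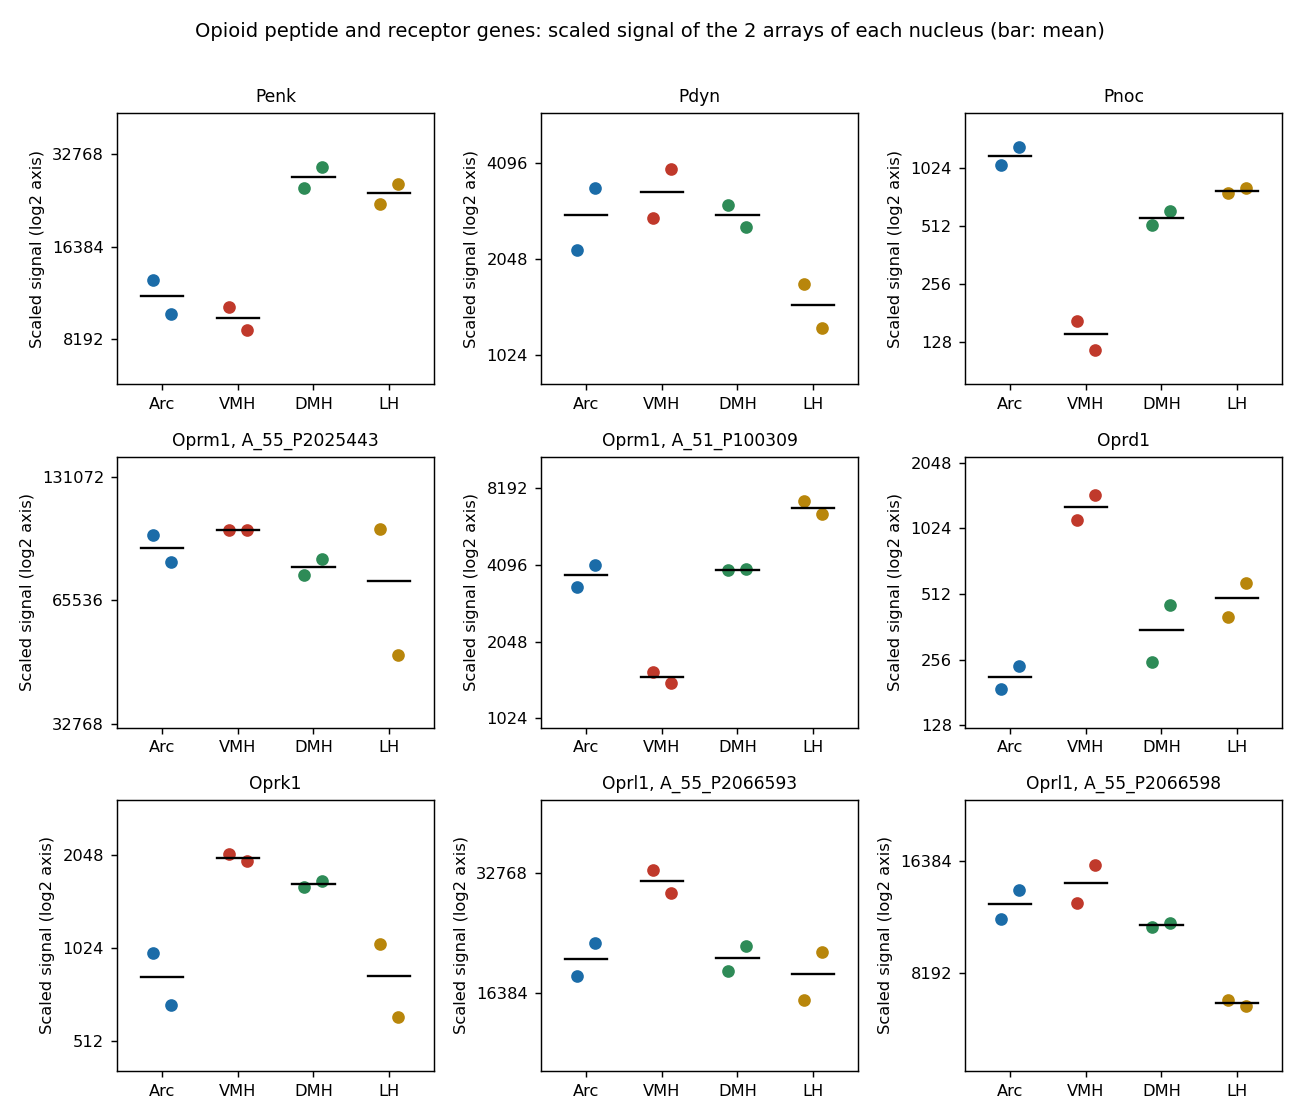
Scaled signal (log2 axis, arbitrary units of brightness after division by the 75th percentile of each array) of the 9 opioid probes in the Arc, VMH, DMH, and LH. Points are single arrays and bars are means of 2 arrays. *Pnoc* and the *Oprm1* probe A_51_P100309 were lowest in the VMH, *Oprd1* was highest there, and *Penk* was higher in the DMH and LH than in the Arc and VMH.

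Across the 4 nuclei, 4 of the 9 opioid probes differed by the moderated F-test of limma, those of *Penk*, *Pnoc*, and *Oprd1* and 1 of the 2 *Oprm1* probes. Of all 28894 probes tested, 8.34% passed the same test. The median span from the highest to the lowest nucleus was 1.32 on the log2 scale for the opioid probes and 0.65 for all probes tested. At an unadjusted p below 0.05, 8 of the 9 passed, as did 24.6% of all probes. The count was 2 without Arc2, VMH1, or VMH2, and the probes of *Pnoc* and *Oprm1* were called in all 8 fits that left out 1 array.

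Over the 6 pairs of nuclei, 14 of the 54 combinations of probe and pair passed, and 11 of these had the VMH on one side. The VMH differed from the Arc at 3 probes against a background of 5.93% of all probes, from the DMH at 4 probes against 2.04%, and from the LH at 4 probes against 5.28%. The Arc and the LH differed at 3 probes, where the background was 9.34%. No opioid probe passed between the Arc and the DMH, where 1.26% of all probes did, or between the DMH and the LH, where 0.924% did, with limma in both cases, although *Penk* passed between the Arc and the DMH in 8 of the 20 alternative settings. At an unadjusted p below 0.05, 3 and 4 of the 9 passed in these 2 comparisons, against 10.8% and 15.5% of all probes. The Tukey-Kramer test, which the study's methods name for comparisons of several groups, called 0 of the 54 combinations after the Benjamini-Hochberg adjustment and 18 before it, when 8.45% of the combinations over all probes passed. The limma count was 3 without VMH2, 4 without VMH1, 6 without DMH1 or DMH2, and 7 without Arc1 or Arc2.

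**Figure D2:**
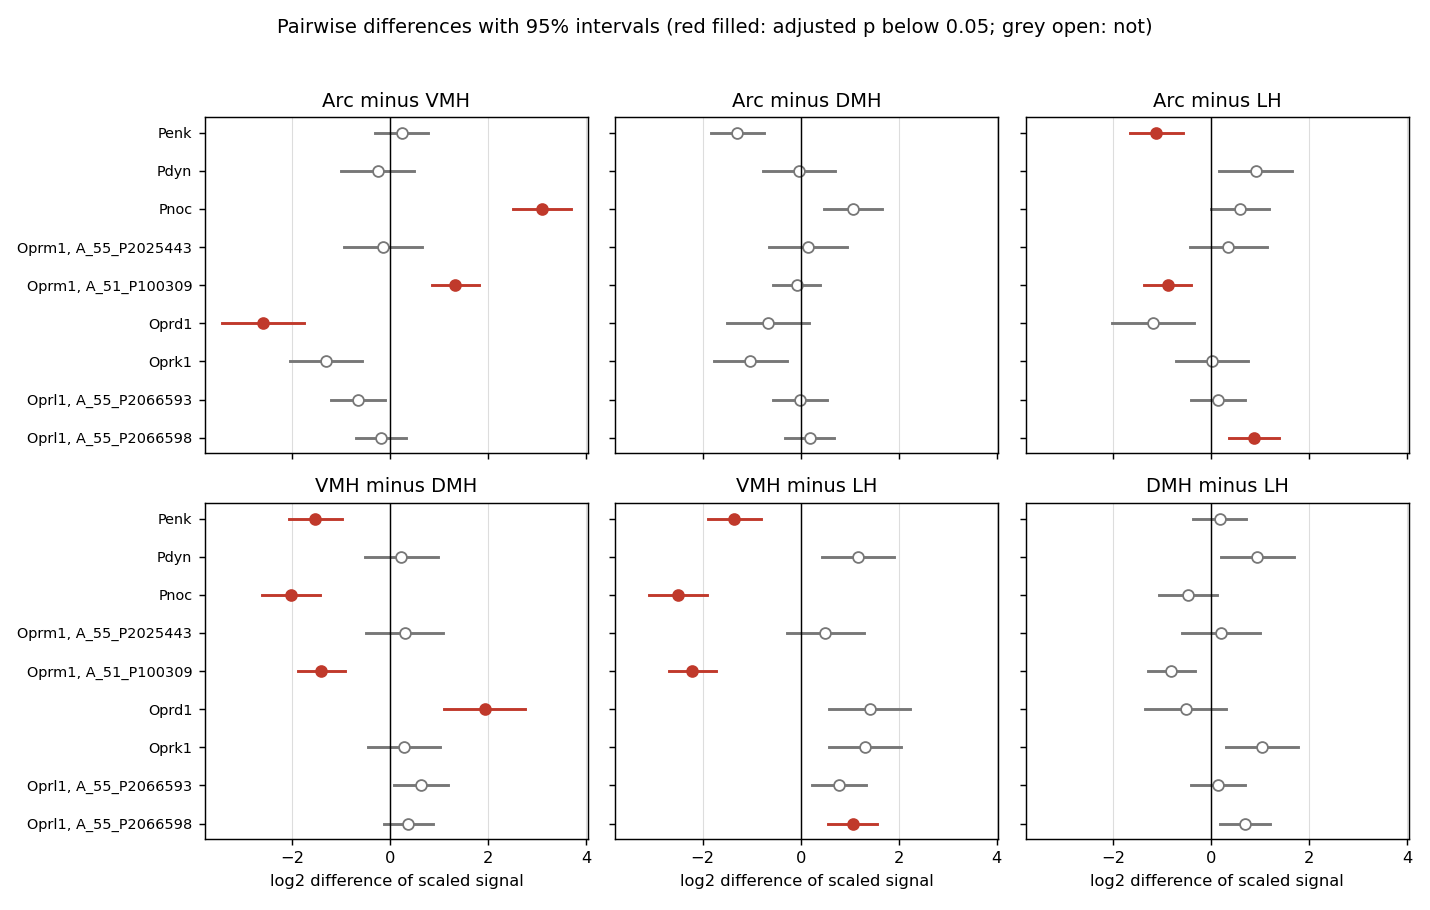
Differences between nuclei on the log2 scale of scaled signal (x axis) for each opioid probe (y axis), 1 panel per pair of nuclei. Circles are estimates from limma and lines their 95% intervals. Red filled circles mark the 14 differences with an adjusted p below 0.05, of which 11 involve the VMH, and none is in the panels of the Arc against the DMH and the DMH against the LH.

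*Penk*, the enkephalin precursor gene, exceeded its VMH level in the DMH and LH, and its Arc level in the LH. Its scaled signal was 25470 and 29651 in the DMH, 22614 and 26273 in the LH, 12772 and 9890 in the Arc, and 10384 and 8746 in the VMH. All 4 arrays of the DMH and LH lay above all 4 arrays of the Arc and VMH, whereas within each of these pairs of nuclei the arrays overlapped.

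The mean of *Penk* was 27561 ± 2956 (SD, n = 2) in the DMH and 9565 ± 1159 (SD, n = 2) in the VMH, a 2.88-fold difference (log2 difference 1.53, SE 0.23, adjusted p = 0.0225). The LH exceeded the VMH 2.56-fold (log2 difference 1.35, SE 0.23, adjusted p = 0.0227) and the Arc 2.17-fold (log2 difference 1.12, SE 0.23, adjusted p = 0.0289). The DMH was 2.45-fold above the Arc with an adjusted p of 0.0569, which missed the threshold but passed it in 8 of the 20 alternatives, including no scaling (0.0244), normexp background correction (0.0186), and quantile normalization (0.042). Over all 20 it lay between 0.00962 and 0.547, the latter by Tukey-Kramer. Neither the 2 highest nor the 2 lowest nuclei differed beyond their spread, with 95% intervals of -0.37 to 0.72 for the DMH minus the LH and -0.31 to 0.78 for the Arc minus the VMH.

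The *Penk* call of the LH against the Arc was lost without any 1 array other than LH1, with adjusted p between 0.0529 and 0.151. That of the DMH against the VMH was lost without DMH1 (0.11), DMH2 (0.158), VMH1 (0.115), or VMH2 (0.142), and that of the LH against the VMH without VMH1 (0.0961) or VMH2 (0.117), and without scaling (0.0711). In fits of only the 2 nuclei, both LH calls of *Penk* were lost (0.109 against the Arc and 0.108 against the VMH), and that against the Arc also without the filter on dim probes (0.0634). The F-test of *Penk* gave an adjusted p of 0.0153, and between 0.0555 and 0.0638 without Arc2, DMH2, VMH1, or VMH2. The 2 LH markers *Hcrt* and *Pmch* shared with *Penk* only the split of the DMH and LH from the Arc and VMH. Their summed scaled signals were 62914 to 72193 in the DMH and 123622 to 133754 in the LH. These sums were 3415 to 4623 in the VMH and 286 to 312 in the Arc. Unlike *Penk*, the markers were higher in the LH than in the DMH and higher in the VMH than in the Arc. Their part in the result was not tested.

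*Pdyn*, the dynorphin precursor gene, was lowest on both LH arrays, but no comparison passed at the settings used. The scaled signal was 2194 and 3429 in the Arc, 2755 and 3911 in the VMH, 3035 and 2588 in the DMH, and 1708 and 1246 in the LH. The arrays of the Arc, VMH, and DMH overlapped one another, and both LH arrays lay below all 6 of them.

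The VMH was 2.25-fold above the LH for *Pdyn* (log2 difference 1.17, SE 0.31, 95% interval 0.43 to 1.91, adjusted p = 0.0877), and the F-test gave an adjusted p of 0.155. In 3 of the 20 alternatives this difference passed, with normexp background correction (0.0464), with trended and robust moderation (0.04), and with only probes well above background on all arrays (0.0494). Over all 20 the adjusted p lay between 0.04 and 0.644, the latter by Tukey-Kramer. The other 3 nuclei differed from one another by at most 0.26 on the log2 scale, with an interval of -0.48 to 1.00 for the VMH minus the Arc. *Avp*, the vasopressin gene of magnocellular neurons, which are known to hold dynorphin, was at 2432 on LH2 and between 105 and 351 on the other 7 arrays, and LH2 had the lowest *Pdyn* signal. The sum of 5 oligodendrocyte markers was 97244 and 102585 in the LH and 10926 to 37412 elsewhere. The part of either in the *Pdyn* values was not tested.

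*Pnoc*, the nociceptin precursor gene, was 8.53-fold lower in the VMH than in the Arc, the widest span of the opioid probes at the main setting. The scaled signal was 1066 and 1317 in the Arc, 765 and 804 in the LH, 519 and 614 in the DMH, and 166 and 116 in the VMH. The 4 nuclei formed 4 groups without overlap in that order, and both VMH arrays were near the lowest signal that counted as well above background, which was 122 on VMH1 and 88.3 on VMH2.

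The mean of *Pnoc* was 1191 ± 177 (SD, n = 2) in the Arc and 141 ± 35.1 (SD, n = 2) in the VMH, an 8.53-fold difference (log2 difference 3.09, SE 0.25, adjusted p = 0.00145). The LH was 5.65-fold above the VMH (log2 difference 2.50, SE 0.25, adjusted p = 0.00399) and the DMH 4.07-fold (log2 difference 2.02, SE 0.25, adjusted p = 0.0114). Among the other nuclei, the Arc was 2.10-fold above the DMH with an adjusted p of 0.125 and 1.51-fold above the LH with an adjusted p of 0.186, and the LH minus the DMH had an interval of -0.11 to 1.06.

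The calls of *Pnoc* between the VMH and the Arc and between the VMH and the LH held in all 8 fits that left out 1 array. That between the VMH and the DMH was lost without DMH1 (adjusted p = 0.0675), DMH2 (0.0844), or VMH2 (0.073). With normexp background correction the log2 differences of *Pnoc* shrank to 1.96 for the Arc minus the VMH, -1.57 for the VMH minus the LH, and -1.11 for the VMH minus the DMH, and all 3 stayed called.

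*Oprm1*, the mu receptor gene, differed among nuclei by one of its probes and not by the other. The probe A_51_P100309, printed on 10 spots of every array, had a scaled signal of 7282 and 6489 in the LH, 3901 and 3951 in the DMH, 3371 and 4090 in the Arc, and 1552 and 1413 in the VMH. The LH arrays were above and the VMH arrays below all others, and the Arc and DMH overlapped. The 10 spots of an array agreed within a coefficient of variation of 3.04% to 8.61%.

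By the 10-spot probe, *Oprm1* was 4.64 times as high in the LH (6886 ± 560, SD, n = 2) as in the VMH (1483 ± 98.4, SD, n = 2), a difference on the log2 scale by 2.21 (SE 0.20, adjusted p = 0.00312). The DMH was 2.65-fold above the VMH (log2 difference 1.41, SE 0.20, adjusted p = 0.0199), and the Arc 2.51-fold (log2 difference 1.33, SE 0.20, adjusted p = 0.0135). The LH was also 1.85-fold above the Arc (log2 difference 0.89, SE 0.20, adjusted p = 0.0399), but 1.75-fold above the DMH with an adjusted p of 0.147. The DMH and the Arc differed by 0.08, with an interval of -0.40 to 0.56.

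The *Oprm1* call of the LH against the VMH held in all 8 fits that left out 1 array. That of the Arc against the VMH was lost without Arc1 (0.0664), Arc2 (0.105), VMH1 (0.0749), or VMH2 (0.0839), that of the DMH against the VMH without DMH1 (0.124), DMH2 (0.127), VMH1 (0.116), or VMH2 (0.123), and that of the LH against the Arc without any 1 array other than LH2 (adjusted p between 0.0711 and 0.235). Without scaling, these 3 *Oprm1* calls were lost too (adjusted p = 0.127, 0.0542, and 0.109), and the last was also lost with quantile normalization (0.0572), without the filter on dim probes (0.0941), and in a fit of only the 2 nuclei (0.141). The summed signal of 5 oligodendrocyte markers was also highest in the LH, 97244 and 102585 against 10926 to 37412 on the other 6 arrays, and its part in the result was not tested.

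The second *Oprm1* probe, A_55_P2025443, is printed on 1 spot and was bright in every nucleus. Its scaled signal was 94809 and 81151 in the Arc, 97135 and 97246 in the VMH, 75528 and 82847 in the DMH, and 97843 and 48189 in the LH. The 2 LH arrays spanned the values of all others, and no comparison passed (F-test, adjusted p = 0.683). The VMH minus the LH was 0.50 with a 95% interval of -0.29 to 1.29, whereas by the 10-spot probe the LH was higher by 2.21. The files name both probes by the same *Oprm1* transcript, and no probe sequence was used here to tell what each detects. The called *Oprm1* differences come from the 10-spot probe alone, and which probe follows the receptor transcript was not tested.

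*Oprd1*, the delta receptor gene, was highest in the VMH, where it exceeded the Arc and the DMH. The scaled signal was 1123 and 1458 in the VMH, 403 and 577 in the LH, 249 and 454 in the DMH, and 187 and 240 in the Arc. Both VMH arrays lay above all 6 others, the LH and DMH overlapped, and both Arc arrays were the lowest.

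The VMH mean of *Oprd1* (1290 ± 237, SD, n = 2) was 6.04 times that of the Arc (213 ± 36.9, SD, n = 2) (log2 difference 2.59, SE 0.35, adjusted p = 0.00892) and 3.81 times that of the DMH (log2 difference 1.93, SE 0.35, adjusted p = 0.0468). It was 2.65 times that of the LH with an adjusted p of 0.0718, which passed in 3 of the 20 alternatives. Neighbours among the 3 lower nuclei were not told apart, with intervals of -0.31 to 1.35 for the LH minus the DMH and -0.17 to 1.50 for the DMH minus the Arc.

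The *Oprd1* call of the VMH against the Arc was lost without Arc1 (0.0787), Arc2 (0.0567), VMH1 (0.053), or VMH2 (0.0665), and that of the VMH against the DMH without any 1 array of the Arc, VMH, or DMH (adjusted p between 0.0597 and 0.228). The latter was also lost without scaling (0.138), with quantile normalization (0.0599), without the filter on dim probes (0.0799), and in a fit of only the 2 nuclei (0.0637). With normexp background correction the Arc minus the VMH shrank to -1.81 and stayed called. The F-test gave an adjusted p of 0.0197, and between 0.074 and 0.108 without an array of the Arc or VMH. The summed signal of 4 neuronal markers was between 152475 and 169412 in the VMH, between 141795 and 164356 in the LH, and between 121638 and 130492 in the Arc and DMH. Of these markers, *Rbfox3* had the order of *Oprd1*, at 11776 and 11171 in the VMH, 6553 and 8034 in the LH, 5122 and 6017 in the DMH, and 2613 and 3725 in the Arc (F-test, adjusted p = 0.0186). The other 3 did not keep this order: *Syt1* (13030 and 11119) and *Tubb3* (59658 and 68688) were on average highest in the LH, and none passed the F-test (adjusted p of 0.0568 for *Syt1*, 0.462 for *Tubb3*, and 0.634 for *Snap25*). The part of neuronal content in the *Oprd1* result was not tested.

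*Oprm1* and *Oprd1* were also set against each other on the same array, where the scaling cancels and only the shift between nuclei can be read. The log2 ratio of the 10-spot *Oprm1* probe over *Oprd1* was 4.17 and 4.09 in the Arc, 3.97 and 3.12 in the DMH, 4.18 and 3.49 in the LH, and 0.47 and -0.05 in the VMH. Both VMH arrays stood far below the other 6, and the ratio in the LH was 12.3 times that in the VMH. This shift rests on the 10-spot probe. By the 1-spot *Oprm1* probe the VMH minus the LH was 0.50, the same direction as *Oprd1* (1.41), and neither difference passed. The windows printed above belong to this pair of genes. The 2 *Oprm1* probes also shifted against each other, the 10-spot over the 1-spot probe being in the LH 6.57 times what it was in the VMH. The log2 ratio of *Penk* over *Pdyn*, the enkephalin and dynorphin precursors, was 3.07 and 3.52 in the DMH, 3.73 and 4.40 in the LH, 2.54 and 1.53 in the Arc, and 1.91 and 1.16 in the VMH, with all DMH and LH arrays above all others. These ratios are descriptions and were not tested.

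**Figure D3:**
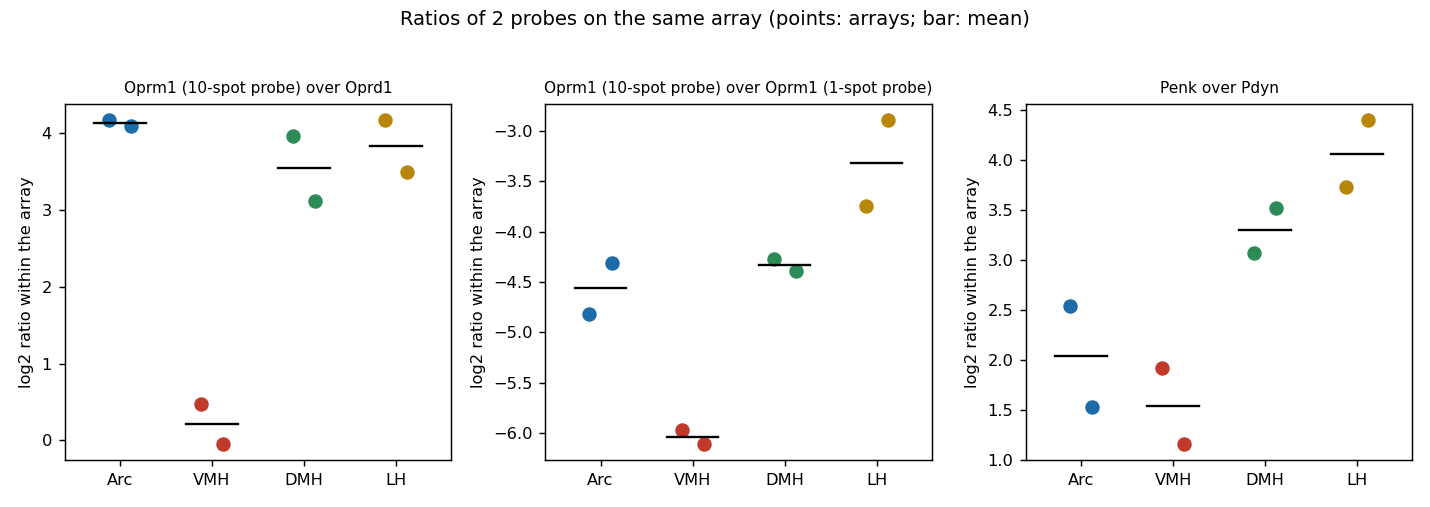
Log2 ratio of 2 probes on the same array (y axis) in the 4 nuclei (x axis), for *Oprm1* (10-spot probe) over *Oprd1*, the 10-spot over the 1-spot *Oprm1* probe, and *Penk* over *Pdyn*. Points are arrays and bars means of 2. The height of a ratio depends on the probes, so only shifts between nuclei are read. In the left panel, the VMH arrays are at 0.47 and -0.05 and the other 6 between 3.12 and 4.18.

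*Oprk1*, the kappa receptor gene, had its higher signals in the VMH and DMH, but no comparison passed. The scaled signal was 2060 and 1958 in the VMH, 1613 and 1692 in the DMH, 983 and 670 in the Arc, and 1051 and 614 in the LH. All arrays of the VMH and DMH lay above all arrays of the Arc and LH, and the last 2 nuclei overlapped.

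The VMH was 2.50-fold above the LH for *Oprk1* (log2 difference 1.32, SE 0.31, 95% interval 0.58 to 2.06, adjusted p = 0.0613) and 2.48-fold above the Arc (log2 difference 1.31, SE 0.31, 95% interval 0.57 to 2.05, adjusted p = 0.0604). The F-test gave an adjusted p of 0.0669, and was below the threshold in 6 of the 19 alternatives that give an F-test. The VMH passed against the Arc in 7 of the 20 alternatives and against the LH in 4. The VMH minus the DMH had an interval of -0.46 to 1.02 and the Arc minus the LH one of -0.72 to 0.75.

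*Oprl1*, the nociceptin receptor gene, was measured by 2 probes with 1 spot each, and only one of them passed a comparison. The probe A_55_P2066598 had a scaled signal of 11402 and 13686 in the Arc, 12615 and 15984 in the VMH, 10863 and 11141 in the DMH, and 6915 and 6669 in the LH, so that both LH arrays lay below all others. The VMH was 2.09-fold above the LH (log2 difference 1.06, SE 0.21, adjusted p = 0.0372) and the Arc 1.84-fold (log2 difference 0.88, SE 0.21, adjusted p = 0.0487). Both calls were lost without any 1 of the 8 arrays, with adjusted p between 0.059 and 0.168 for the VMH and between 0.0678 and 0.213 for the Arc. Both were lost without scaling (0.153 and 0.326), without the filter on dim probes (0.0847 and 0.11), and in fits of only the 2 nuclei (0.167 and 0.137). The F-test gave an adjusted p of 0.0689. The summed oligodendrocyte markers, as given for *Oprm1*, were highest in the LH, where this probe was lowest. Outside the LH they did not mirror it, and both were on average highest in the VMH. The part of these markers in the calls was not tested.

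The probe A_55_P2066593 of *Oprl1* had a scaled signal of 33236 and 29250 in the VMH, 18050 and 21885 in the Arc, 18679 and 21548 in the DMH, and 15727 and 20796 in the LH. Both VMH arrays were above all others, and the other 3 nuclei overlapped. No comparison passed (F-test, adjusted p = 0.192), and the VMH minus the LH was 0.79 with an interval of 0.23 to 1.34 and an adjusted p of 0.115 (0.0397 with trended and robust moderation). The probes therefore differed in which nucleus stood apart, the LH by the first and the VMH by the second, and the difference between probes was not tested. For nociceptin, the precursor *Pnoc* was lowest in the VMH, where neither *Oprl1* probe was low.

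Genes around the opioid system were taken as 4 lists that together held 65 tested probes of 46 genes. Of these probes, 12 passed the F-test (18.5%), and their median span among nuclei was 0.72 on the log2 scale, against 8.34% and 0.65 for all probes tested and 44.4% and 1.32 for the 9 opioid probes. By list, 60% passed for genes that mark neurons known to hold opioid peptides. The share was 22.2% for opioid-related genes, 13.3% for processing and breakdown, and 13.9% for receptor signalling. Among those that passed, *Pomc*, *Kiss1*, and *Hcrt* are markers of nuclei whose differences were known beforehand. The pooled share is therefore not a result about the lists. The count of 12 was 5 without Arc1, Arc2, or VMH1 and 7 without DMH2 or VMH2.

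Among opioid-related genes, 2 of 9 probes passed, those of *Pomc* and *Rtp4*. *Pomc*, the precursor gene of beta-endorphin and of the melanocortins, had a scaled signal of 40403 and 43108 in the Arc, 4049 and 3865 in the VMH, 1554 and 1447 in the DMH, and 1003 and 1299 in the LH. It was 10.6-fold higher in the Arc than in the VMH (log2 difference 3.40, SE 0.21, adjusted p = 0.000595) and 36.5-fold higher than in the LH (log2 difference 5.19, SE 0.21, adjusted p = 0.000261). *Pomc* is the fourth opioid precursor, and its order of nuclei is that of none of the other 3. *Rtp4*, which encodes a chaperone for the cell-surface delivery of opioid receptors, had an F-test adjusted p of 0.0453 and was between 1158 and 1191 in the Arc, between 853 and 1075 in the LH, between 708 and 728 in the VMH, and between 339 and 521 in the DMH.

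Among the genes for processing and breakdown of the precursors and peptides, 2 of 15 probes passed. *Pcsk1* encodes the prohormone convertase that makes the first cuts in such precursors, and its scaled signal was 2839 and 3048 in the LH, 1543 and 1830 in the Arc, 1308 and 1222 in the DMH, and 1004 and 990 in the VMH. The LH was above each other nucleus, 2.95-fold against the VMH (log2 difference 1.56, SE 0.19, adjusted p = 0.0083), 2.33-fold against the DMH (adjusted p = 0.047), and 1.75-fold against the Arc (adjusted p = 0.0475). *Pcsk2*, the convertase that makes the later cuts, was lowest in the Arc by 1 of its 2 probes (F-test, adjusted p = 0.0495), and the other probe had an adjusted p of 0.481. The carboxypeptidase gene *Cpe* had 3 probes with adjusted p between 0.265 and 0.498.

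Among the genes of receptor signalling, 5 of 36 probes passed, from 4 of 23 genes. *Kcnj5* encodes an inwardly rectifying potassium channel that inhibitory G proteins open. Its scaled signal was 1439 and 1519 in the VMH, 632 and 613 in the Arc, 538 and 667 in the LH, and 430 and 513 in the DMH, and the VMH was 3.15-fold above the DMH (log2 difference 1.66, SE 0.21, adjusted p = 0.0126), 2.47-fold above the LH (adjusted p = 0.019), and 2.38-fold above the Arc (adjusted p = 0.0187). A probe of *Kcnj3*, of the same channel family, rose well above background only on the VMH and DMH arrays, at 197 and 248 in the VMH and at 107 and 99.0 in the DMH (F-test, adjusted p = 0.0248), and a second probe had an adjusted p of 0.226.

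*Arrb1*, which encodes a beta-arrestin that uncouples and internalizes the receptors, was in the LH 2.88 times its Arc level (log2 difference 1.53, SE 0.19, adjusted p = 0.00508) and in the VMH 2.49 times that level (adjusted p = 0.0107). The summed oligodendrocyte markers had the same order of nuclei as *Arrb1* (30484 and 37412 in the VMH, 26865 and 25908 in the DMH, and 17807 and 10926 in the Arc, below the LH values given above), and were, like *Pcsk1*, highest in the LH. Their part in these results was not tested. *Rgs9* encodes a protein that speeds the switching-off of inhibitory G proteins, and by all 3 of its probes the Arc exceeded the LH, 2.70-fold (adjusted p = 0.00886), 2.64-fold (adjusted p = 0.00982), and 2.02-fold (adjusted p = 0.0388). The third of these probes missed the F-test (adjusted p = 0.0712). None of the probes for the G protein subunits *Gnai1*, *Gnai2*, *Gnai3*, *Gnao1*, and *Gnaz* passed.

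Of the 4 genes that mark neurons known to hold opioid peptides, *Tac2*, *Hcrt*, and *Kiss1* passed by 1 probe each, and *Avp* did not (F-test, adjusted p = 0.316). *Tac2* and *Kiss1*, the neurokinin B and kisspeptin genes, are shared by Arc neurons that also make dynorphin. *Tac2* had a scaled signal of 13623 and 10678 in the Arc, between 3101 and 3601 on the DMH and LH arrays, and 124 and 131 in the VMH, where 1 of the 2 arrays was well above background. *Kiss1* was 23170 and 16617 in the Arc and at most 300 elsewhere by its brighter probe, and its other probe had an adjusted p of 0.239. *Hcrt*, whose neurons also make dynorphin, was in the LH 256 times its VMH level (adjusted p = 0.000386). For *Pdyn*, neither the Arc nor the LH stood above the other nuclei.

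**Figure D4:**
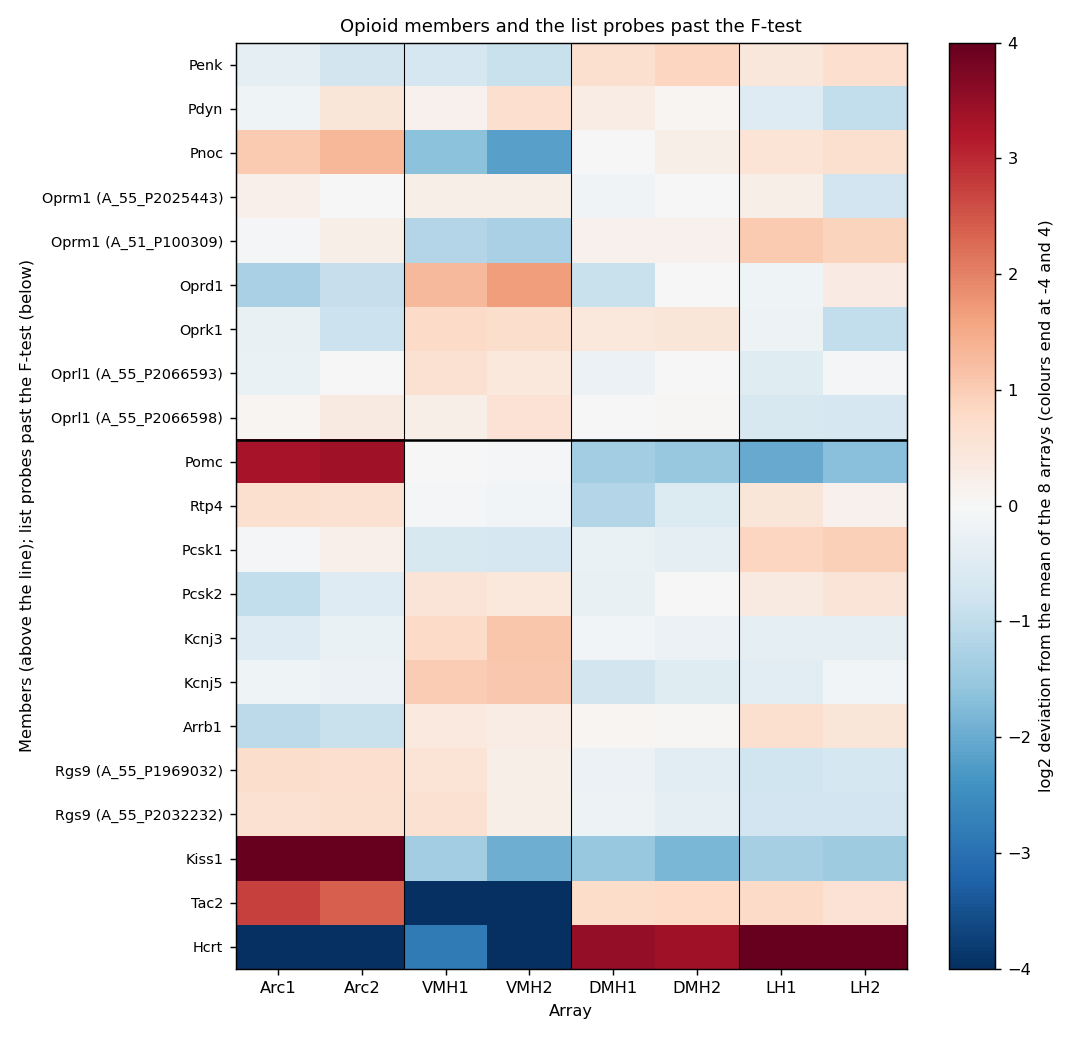
Deviation of each array (columns) from the mean of the 8 arrays on the log2 scale (colour) for the 9 opioid probes (above the line) and the 12 list probes past the F-test (below it). Colours end at -4 and 4. *Pnoc* and *Tac2* share their lowest values in the VMH, and *Oprd1* and *Kcnj5* their highest. The largest deviation of each opioid probe is smaller than the largest of *Pomc*, *Kiss1*, *Tac2*, or *Hcrt*.

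The genes whose pattern over the 8 arrays was most like that of each opioid gene were found by Pearson's r of log2 scaled signal, using the brightest probe of each gene. The arrays fall into 4 nuclei and share 1 slide, so r mostly describes the order of the nuclei and carries no test. For *Penk*, the closest were *Adcy7* (0.992), *Ebf3* (0.981), and *Trh* (0.980). *Trh*, the precursor gene of thyrotropin-releasing hormone, had a scaled signal of 5586 and 9818 in the DMH, 6519 and 5690 in the LH, 116 and 119 in the Arc, and 45.5 and 43.8 in the VMH. *Trh* and *Ebf3* were not well above background on any Arc or VMH array, so these 2 values of r set the DMH and LH against dim signals, whereas *Adcy7* was well above background on all 8 arrays.

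For *Pnoc*, the closest were *Ecel1* (0.997), *Dgkk* (0.995), and *Neil2* (0.988). *Ecel1*, a gene of the endothelin-converting enzyme family, had a scaled signal of 35686 and 39726 in the Arc and of 4669 and 2784 in the VMH, which keeps the order of *Pnoc* in all 4 nuclei. For *Oprd1*, the closest were *Prkcz* (0.987), *Mapre3* (0.984), and *Ighmbp2* (0.979). The values were lower for *Pdyn* (*Rprd2*, 0.974, *Apol11b*, 0.969, and *Cited4*, 0.965), *Oprk1* (*Ahdc1*, 0.958, *Plcg2*, 0.957, and *Tubd1*, 0.955), and *Oprl1* (*Susd4*, 0.975, *Trim46*, 0.973, and *Rbck1*, 0.973). For the other *Oprl1* probe, A_55_P2066598, they were *Sox1ot* (0.976), *Pla2g12a* (0.970), and *Smpd3* (0.970). Of the genes close to *Oprk1*, *Ahdc1* was well above background on 0 Arc arrays and 1 LH array and *Tubd1* on 1 array of each, so that both set the VMH and DMH against mostly dim signals.

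For *Oprm1*, the brightest probe is the 1-spot probe, and its closest genes, *Itgam* (0.966), *Ston2* (0.964), and *Gtf2h1* (0.964), shared with it the low signal on LH2, where *Ston2* and *Gtf2h1* were not well above background. For the 10-spot probe, which lies outside this rule and was added because it carries the *Oprm1* result, they were *Gnas* (0.996), *Cygb* (0.990), and *Thsd7a* (0.988). *Gnas*, the gene of the stimulatory G protein subunit, had a scaled signal of 14802 and 14470 in the LH and of 6669 and 6675 in the VMH.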

How the data were processed

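RNA of 4 laser-microdissected nuclei was measured on 8 one-color Agilent arrays, 2 per nucleus. The deposited values are an intensity for every spot on a linear scale, extracted by the authors with Agilent Feature Extraction (10.7.3.1 per the file headers, 11.5.1.1 per the submitters' processing notes), with background subtracted and no scaling between arrays. The dye is Cy3 in the labels, Cy5 in the methods, and the intensities are those of the red channel. A deposited table of all arrays, used as an alternative, holds the same intensity averaged over the spots of a probe.

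Spots that the software marked as outliers (126 to 364 per array) were left out, the others were averaged per probe, and the result was divided on each array by its 75th percentile (814.6 to 1239 before scaling), with the divisors set to a geometric mean of 1. This value is the scaled signal. Between 47.12% and 52.71% of spots were well above background, and the number of arrays limits the precision. The log2 values of 28894 probes, those that both arrays of 1 or more nuclei measured well above background, were fitted with limma 3.58.1 in R 4.3.3, with 1 mean per nucleus and 4 residual degrees of freedom. F-tests and the 6 pairwise tests were adjusted by Benjamini and Hochberg over all probes tested, with a threshold of 0.05, and all adjusted p-values are from limma unless another test is named. The procedure was also run on simulated data, and the outcome is not reported here. Probes were named through RefSeq accessions (26756 of 28390 matched, 94.2%). Levels are compared only within a probe.

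The members, gene lists, and markers were chosen with earlier results of these data known. All 9 member probes are described. Of the list genes, those that passed the F-test are named, with *Pomc* in any case, and for the brightest probe of each opioid gene the 3 genes of highest r. List genes named as having missed the threshold and the likeness of the second *Oprm1* and *Oprl1* probes were chosen after seeing their values. Scaling was left out or replaced by quantile normalization as alternatives, and others were normexp with an offset of 50, the deposited table, no filter on dim probes, the same filter on all arrays, dim signals raised, outlier spots retained, a replicate block, trended and robust moderation, fits of 2 nuclei, ANOVA with Tukey-Kramer, and each array left out in turn.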

Additional observations from a re-analysis of the deposited data

How the results depend on the processing

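None of the 14 called differences changed direction in any of the 20 alternatives, and none was called in all of them. The 9-probe F-test count of 4 became 2 by ANOVA, ranged from 2 to 5 when 1 array was left out, and was 4 to 6 otherwise. The count of 14 pairs became 0 by Tukey-Kramer, 9 without the filter on dim probes, 8 without scaling, and 9 in fits of only the 2 nuclei compared, ranged from 3 to 14 when 1 array was left out, and was 13 to 20 otherwise. The list count of 12 became 7 by ANOVA and 6 without scaling, and ranged from 5 to 15 when 1 array was left out. With the replicate number as a block, the counts were 4, 14, and 10, but 2 calls were lost (Arc against LH for the 10-spot *Oprm1* probe, adjusted p = 0.0581, and *Oprl1* A_55_P2066598, 0.0571) and 2 gained (*Oprd1*, LH against Arc, 0.0301, and against VMH, 0.0264). The numbers coincide with the row of the slide, and whether they also mark a mouse is not given: deviations of same-numbered arrays correlated between -0.026 and 0.258. In all, 7 pairs that were not called were called in some alternative, the 2 of the block included.

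Reversals occurred only in differences that were not called. Without scaling, which shifted all probes by a median of -0.27 (Arc minus VMH), -0.48 (Arc minus DMH), and -0.16 (Arc minus LH) from the scaled values, the log2 difference became -0.032 for *Penk* Arc minus VMH, -0.33 for the 1-spot *Oprm1* probe and -0.30 for *Oprl1* A_55_P2066598 Arc minus DMH, and -0.14 for *Oprk1* and -0.023 for *Oprl1* A_55_P2066593 Arc minus LH. *Oprk1* Arc minus LH was -0.032 with normexp and -0.011 with quantile normalization, and the 1-spot *Oprm1* probe Arc minus DMH was -0.020 and -0.0081. With 1 array left out, the range was -0.58 to 0.063 for *Pdyn* Arc minus VMH, -0.35 to 0.29 for Arc minus DMH, and -0.025 to 0.48 for VMH minus DMH, -0.22 to 0.059 for the 10-spot *Oprm1* probe Arc minus DMH, and -0.37 to 0.40 for *Oprk1* Arc minus LH. For the 1-spot *Oprm1* probe against the LH it was -0.16 to 0.86 (Arc), -0.0097 to 1.01 (VMH), and -0.31 to 0.72 (DMH), and for *Oprl1* A_55_P2066593 -0.15 to 0.13 for Arc minus DMH, -0.065 to 0.34 for Arc minus LH, and -0.052 to 0.35 for DMH minus LH. The cause was not tested.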

Other observations

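Some probes of the lists passed a comparison of 2 nuclei without passing the F-test across the 4 nuclei. *Ace*, which encodes a peptidase, was in the LH 2.31 times its Arc level (adjusted p = 0.0391), and *Rgs17* 1.77 times its Arc level (adjusted p = 0.0497). *Adcy1*, an adenylyl cyclase gene, was in the LH 3.52 times its VMH level (adjusted p = 0.0367). These 3 genes were chosen after their values were seen.

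Among the 9 opioid probes, *Pdyn* and the *Oprl1* probe A_55_P2066598 had the highest correlation over the 8 arrays (r = 0.939), and *Pnoc* and *Oprd1* the lowest (r = -0.880). These values describe 4 nuclei with 2 arrays each, which share 1 slide, and the pairs were picked after all 36 had been computed.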
